A study of Mus musculus with 46 samples.

Results

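Expression of 5 cadherins (Cdh1, Cdh2, Cdh6, Cdh11 and Cdh16), the intermediate filament gene Vim and 4 transcription factors of mesenchymal transition (Snai1, Snai2, Twist1 and Zeb2) was examined in 4 cell populations sorted from mouse kidney. The 10 genes were taken by symbol from the 53465 genes of the deposited table, and each symbol matched 1 gene. Kidneys came from wild-type C57BL/6 mice, adult males by the study's methods, after sham surgery, unilateral ureteric obstruction (UUO) or UUO followed by reversal of the obstruction (rUUO). Proximal tubular (PT) cells were sorted on binding of the lectin LTL, macrophages on F4/80, endothelial cells on CD31 and stromal cells on PDGFRB. Values were available for 3 sham, 4 UUO and 3 rUUO samples of PT cells, for 4, 4 and 3 of macrophages, for 4, 3 and 4 of endothelial cells and for 4 of each group of stromal cells. The labels give no day of obstruction, and the study's methods give more than one for UUO, so early and late UUO kidneys cannot be separated here. The PT UUO sample with the number 2 has a title that holds both SHAM and UUO, and its treatment label placed it with UUO.

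Cadherins are calcium-dependent adhesion molecules that join neighbouring cells and are anchored to actin by catenins. Epithelial cells of the nephron carry E-cadherin (Cdh1) and the kidney-specific Ksp-cadherin (Cdh16), whereas N-cadherin (Cdh2), K-cadherin (Cdh6) and OB-cadherin (Cdh11) are found on mesenchymal cells and on particular epithelia. In mesenchymal transition an epithelial cell represses Cdh1, often through Snai1, Snai2, Twist1 or Zeb2, and takes up the filament protein vimentin. The same factors are also part of the ordinary make-up of fibroblasts, pericytes, endothelial cells and, for Zeb2, macrophages, so their level in a sorted population is not in itself a sign of transition.

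Each population carried the marker of its sort. Lrp2 lay between 55.0 and 229 FPKM (fragments scaled to transcript length and to the fragments mapped in a sample) in PT cells and at or below 9.75 elsewhere. Adgre1, which encodes F4/80, reached 152 to 247 FPKM in macrophages and at most 1.54 elsewhere, Pecam1, which encodes CD31, 322 to 530 in endothelial cells and at most 13.7 elsewhere, and Pdgfrb 92.9 to 258 in stromal cells and at most 6.75 elsewhere. The 37 mitochondrial genes took 58.7 to 75.6% of all FPKM in PT cells and 20.2 to 45.8% in the other populations. The median of all genes was higher by 0.90 to 1.06 on the log2 scale in the other sham populations than in PT sham, and in PT cells it was 0.51 higher in UUO than in sham. Differences below are on log2(FPKM + 1), which understates the change of genes near 1 FPKM. They come from limma, with p-values adjusted over all genes tested in a comparison and called under 0.05.

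**Figure D1:**
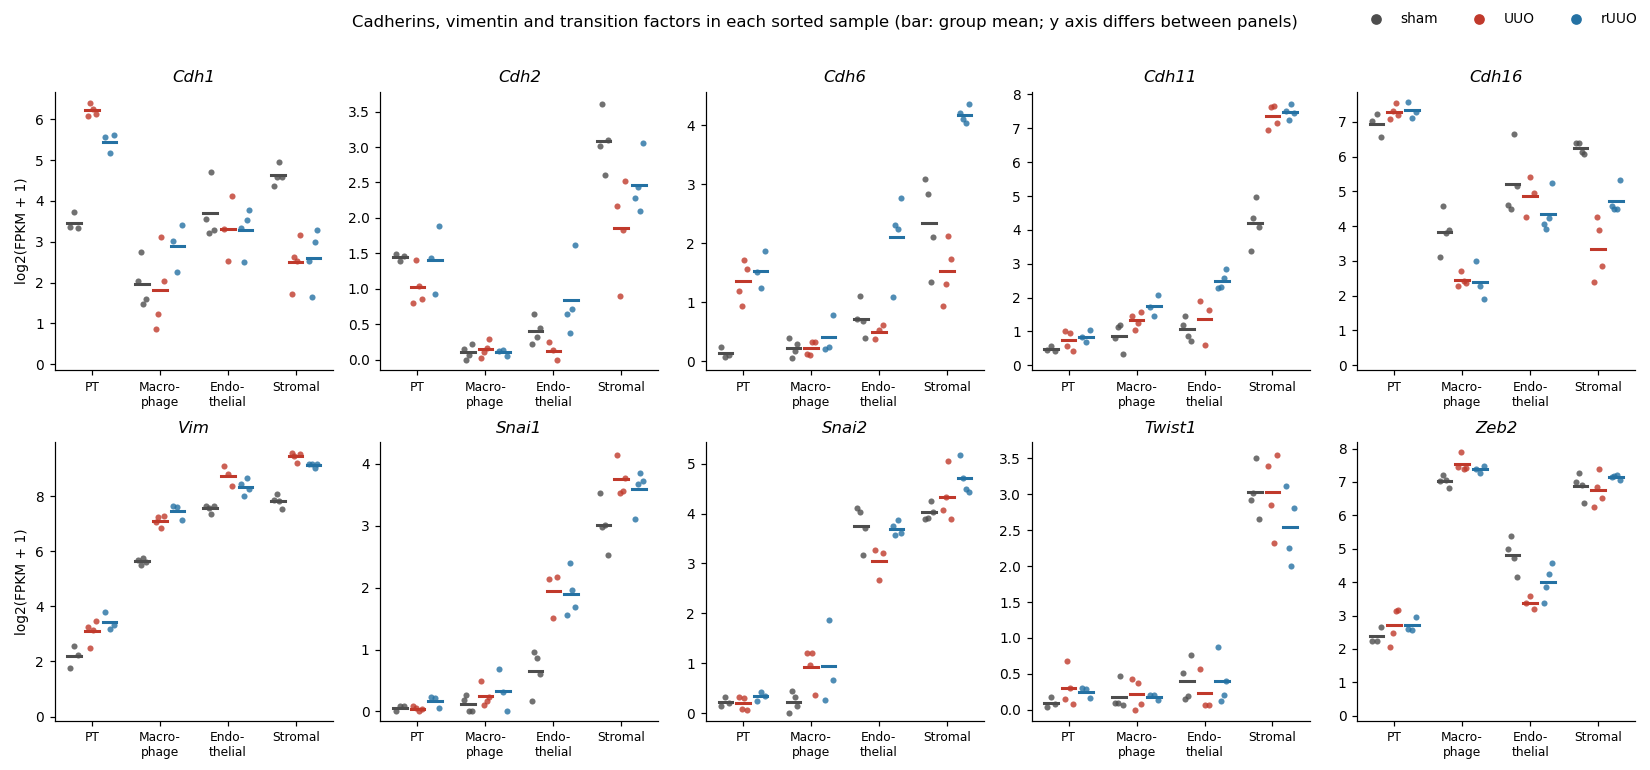
FPKM of the 10 genes in each of the 44 samples, 1 panel per gene, with log2(FPKM + 1) on the vertical axis, which differs between panels, and the 4 populations along the horizontal axis. Each point is 1 sample, coloured by sham, UUO or rUUO, and each bar a group mean. Cdh1 in PT cells rises from 9.04 to 12.29 FPKM in sham to 66.59 to 83.55 in UUO, Cdh11 stands out in stromal UUO and rUUO cells, and Twist1 stays under 1 FPKM outside stromal cells.

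In sham kidneys the epithelial cadherins were not highest together. Cdh16 (chr8:104601911-104624396, minus strand, GRCm38) had 129.67, 148.16 and 94.12 FPKM in PT cells and 82.83, 82.58, 69.6 and 66.22 FPKM in stromal cells. In endothelial cells it had 23.49, 21.4, 98.76 and 34.91 FPKM, and in macrophages 7.59 to 22.89 FPKM. PT and stromal levels did not overlap, but the difference was not called (stromal minus PT, -0.69 ± 0.41 SE, adjusted p = 0.143). The test pools the spread over all sham populations, endothelial cells included. With the mitochondrial genes removed before scaling, the same difference was -1.42 (adjusted p = 0.00911), and with quantile normalisation -1.38 (adjusted p = 0.0101). The endothelial value of 98.76 FPKM came from sham sample 3, whose 9 markers of thick limb, distal tubule and collecting duct summed to 929 FPKM, the highest of any sample. Without it, stromal cells had more Cdh16 than endothelial cells by 1.49 (adjusted p = 0.000822), against 1.02 ± 0.38 (adjusted p = 0.0618) with it, and PT more than stromal cells (adjusted p = 0.0404).

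Cdh1 (chr8:106603351-106670246, plus strand) was highest in sham stromal cells, at 19.79, 23.18, 29.96 and 23 FPKM, against 9.25, 12.29 and 9.04 FPKM in PT cells, 8.34 to 25.2 FPKM in endothelial cells and 1.76 to 5.76 FPKM in macrophages. Stromal cells exceeded PT cells by 1.16 ± 0.35 (adjusted p = 0.0083), but the difference was 0.50 without mitochondrial genes (adjusted p = 0.298) and 0.05 with quantile normalisation (adjusted p = 0.923). The difference between endothelial and PT cells was not called (0.22 ± 0.35, adjusted p = 0.604). The stromal excess over endothelial cells (0.93 ± 0.33, adjusted p = 0.0465) was lost when any of 11 of the 15 sham samples was left out, that is any sample other than macrophage 2, 3 or 4 or endothelial 3 (adjusted p = 0.0517 to 0.132). The 9 distal tubule markers summed to 414 to 622 FPKM in stromal sham cells and to 42.4 to 56.3 FPKM in PT sham cells. Their part in the stromal Cdh1 and Cdh16 was not tested.

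Cdh11, Cdh2 and Cdh6 were each highest in the stromal cells of sham kidneys. Cdh11 (chr8:102632095-102785642, minus strand) had 9.43, 19.46, 30.52 and 16.12 FPKM in stromal cells and no more than 1.76 FPKM in any other sham sample. Cdh2 reached 5.09 to 11.13 FPKM in stromal cells, 1.62 to 1.8 FPKM in PT cells and at most 0.57 FPKM elsewhere. Cdh6 (chr15:13028701-13173675, minus strand) had 7.57, 6.16, 1.53 and 3.31 FPKM in stromal cells and at most 1.17 FPKM in other sham samples. Stromal cells exceeded PT cells by 3.73 ± 0.34 for Cdh11 (adjusted p = 6.82e-08), by 1.63 ± 0.26 for Cdh2 (adjusted p = 3.62e-05) and by 2.20 ± 0.35 for Cdh6 (adjusted p = 3.64e-05). With quantile normalisation the Cdh2 difference was 0.34 (adjusted p = 0.297). PT cells, in turn, had more Cdh2 than macrophages (macrophage minus PT, -1.33 ± 0.26, adjusted p = 0.000252) and endothelial cells (-1.04 ± 0.26, adjusted p = 0.00231). In stromal sham cells the distal tubule markers summed to 414 to 622 FPKM, podocyte markers to 80.0 to 161 FPKM and proximal tubule markers to 41.5 to 74.8 FPKM. The part of these nephron markers in the stromal Cdh2 and Cdh6 was not tested.

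Vim (chr2:13573927-13582826, plus strand) stood in steps across the sham populations, from 2.36 to 4.86 FPKM in PT cells through 44.75 to 52.44 FPKM in macrophages to 162.14 to 200.51 FPKM in endothelial and 182.13 to 272.18 FPKM in stromal cells. The difference between the last pair was not called (0.27 ± 0.18, adjusted p = 0.321), although quantile normalisation gave 0.56 (adjusted p = 0.0285). Macrophages exceeded PT cells by 3.45 ± 0.19 (adjusted p = 8.82e-11), and endothelial cells exceeded macrophages by 1.92 ± 0.18 (adjusted p = 8.53e-08).

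The 4 transcription factors had 3 patterns. Twist1 (chr12:33957671-33959829, plus strand), a basic helix-loop-helix factor, had 5.3 to 10.38 FPKM in stromal sham cells and stayed at or below 0.83 FPKM in every sample of the other populations. Snai1 (chr2:167538195-167542814, plus strand), a zinc-finger repressor, was likewise stromal in sham kidneys, with 10.58, 6.92, 7.1 and 4.78 FPKM against at most 0.95 FPKM in endothelial cells. It stayed at or below 0.17 FPKM in PT cells and 0.61 FPKM in macrophages in all 3 surgery groups. The endothelial level was not called above that of PT cells (0.59 ± 0.28, adjusted p = 0.076) or macrophages (0.54 ± 0.26, adjusted p = 0.104), yet both were called when endothelial sham sample 1 was left out (adjusted p = 0.0343 and 0.0485) and with a pseudocount of 0.1 (2.14, adjusted p = 0.0084, and 1.88, adjusted p = 0.0175). The second was also called without mitochondrial genes (0.99, adjusted p = 0.0328). Snai2 (chr16:14705852-14709395, plus strand), the paralogue, was shared by endothelial (7.97 to 16.28 FPKM) and stromal cells (13.93 to 18.03 FPKM), whose difference was not called (0.27 ± 0.24, adjusted p = 0.481). Zeb2 (chr2:44983632-45117395, minus strand) was highest in macrophages (111.62 to 145.78 FPKM) and stromal cells (81.38 to 152.07 FPKM), whose difference again was not called (stromal minus macrophage, -0.15 ± 0.24, adjusted p = 0.648). Its endothelial level of 16.71 to 40.8 FPKM lay between these and the PT level of 3.68 to 5.24 FPKM, and it differed from each (2.07 ± 0.24 below stromal cells, adjusted p = 3.31e-06, and 2.44 ± 0.26 above PT cells, adjusted p = 4.12e-07).

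All 10 genes passed the filter of a mean of 1 FPKM in the sham comparison. Of them 9 were called between stromal and PT cells, where 67.6% of all genes tested were called, and 5 each between macrophages and PT cells (64.9% of all genes) and between endothelial and PT cells (62.3%). Between stromal cells and macrophages 9 were called (48.1% of all genes), between endothelial cells and macrophages 5 (45.7%) and between stromal and endothelial cells 7 (24.2%). In the comparisons that involved stromal cells the genes called were higher there, apart from Cdh16 against PT cells under the other 2 scalings given above. Cdh2, Cdh6, Cdh11, Snai1 and Twist1 reached the filter only through their stromal samples. For these genes a higher stromal call was therefore partly set by the filter, and the counts give no separate support for it. Over all genes, 8482 were higher and 1120 lower in stromal than in PT cells, but 6638 and 1961 without mitochondrial genes and 3251 and 3065 with quantile normalisation. The split for macrophages against PT cells moved from 7439 and 1784 to 4549 and 3771 and to 3791 and 3787, and that for endothelial against PT cells from 7608 and 1240 to 5155 and 2298 and to 3147 and 3009. Without mitochondrial genes the splits against macrophages moved from 3482 and 3014 to 5010 and 2424 for endothelial cells and from 3981 and 2851 to 6309 and 2109 for stromal cells.

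Snai, Twist and Zeb proteins bind E-box sequences, so the start regions of the genes themselves were searched for CACCTG (or CAGGTG on the other strand) and for the wider CANNTG, which includes it. RefSeq windows of GRCm38.p6, from 250 bases before to 50 bases after a gene start, matched Cdh6, Vim, Snai1, Twist1 and Zeb2, 5 of the 10 genes, in 8 windows. Of all 32851 promoter windows 20.2% held CACCTG on either strand and 72.3% held CANNTG. The windows of Snai1 and Cdh6 are shown because they alone among the 8 held a match, with the match in capitals. The match in Snai1 was CACCTG and started 126 bases before the gene start. The one in Cdh6, of the wider motif only, read CACTTG and started 15 bases before it. The windows of Vim, Twist1 and Zeb2 held neither motif. Both windows are written 5′ to 3′ on the strand of the gene, chr2:167537945-167538244 (plus) for Snai1 and chr15:13173626-13173925 (minus) for Cdh6.
Snai1: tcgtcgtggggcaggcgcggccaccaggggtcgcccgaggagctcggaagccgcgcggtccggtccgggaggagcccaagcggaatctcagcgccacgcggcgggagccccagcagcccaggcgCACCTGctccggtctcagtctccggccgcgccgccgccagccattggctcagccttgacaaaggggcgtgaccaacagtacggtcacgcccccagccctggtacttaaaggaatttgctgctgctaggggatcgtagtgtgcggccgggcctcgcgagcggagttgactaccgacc
Cdh6: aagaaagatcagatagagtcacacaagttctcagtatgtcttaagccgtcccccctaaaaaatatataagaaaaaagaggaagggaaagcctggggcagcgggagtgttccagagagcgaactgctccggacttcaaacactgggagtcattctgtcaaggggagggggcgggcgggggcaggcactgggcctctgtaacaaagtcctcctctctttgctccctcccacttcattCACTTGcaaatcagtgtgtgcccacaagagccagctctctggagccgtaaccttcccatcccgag

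In PT cells the epithelial cadherin Cdh1 rose after obstruction, while Cdh16 was not called and Snai1, Snai2 and Twist1 stayed under the filter. Cdh1 had 66.59, 83.55, 75.89 and 69.58 FPKM in UUO (mean 73.9 ± 7.51 SD, n = 4) against 9.25, 12.29 and 9.04 FPKM in sham (10.2 ± 1.82 SD, n = 3). All UUO samples lay far above all sham samples, and the difference was 2.75 ± 0.20 (adjusted p = 2.4e-07). Across the 7 other ways of processing it lay between 2.38 and 2.86, and without the oddly titled UUO sample 2 it was 2.69 (adjusted p = 2.27e-06). After reversal Cdh1 stood at 46.04, 35.1 and 48.19 FPKM, below every UUO and above every sham sample. This was 1.98 ± 0.22 above sham (adjusted p = 3.38e-05). The drop from UUO (-0.77 ± 0.20, adjusted p = 0.0488) was no longer called when any single PT sample other than sham sample 2 was left out (adjusted p = 0.0516 to 0.18), nor under 6 of the 7 other ways of processing.

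Cdh6, a cadherin of the developing nephron, was also higher after UUO. It had 1.28, 0.92, 2.3 and 1.97 FPKM in UUO and 1.86, 1.36 and 2.65 FPKM in rUUO against 0.19, 0.05 and 0.08 FPKM in sham. Its mean over all PT samples reached the filter only through the operated groups. Neither operated group overlapped sham, with differences of 1.21 ± 0.32 for UUO (adjusted p = 0.0108) and 1.40 ± 0.34 for rUUO (adjusted p = 0.0225), or 3.03 and 3.32 with a pseudocount of 0.1. The UUO call was lost with quantile normalisation (0.63, adjusted p = 0.141), and the rUUO call with quantile normalisation or no filter (adjusted p = 0.0519 and 0.0586) and when sham sample 1, 2 or 4 or rUUO sample 2 or 4 was left out (adjusted p = 0.0587 to 0.0815). Vim had 8.43, 4.64, 7.83 and 10.19 FPKM in UUO against 2.36, 4.86 and 3.75 FPKM in sham, so that the groups overlapped, and 12.74, 8.03 and 8.96 FPKM in rUUO, above every sham sample. The Vim differences were 0.91 ± 0.30 for UUO (adjusted p = 0.0334) and 1.24 ± 0.32 for rUUO (adjusted p = 0.0317). The UUO call was lost when sham sample 1 or 4 or UUO sample 1, 3 or 4 was left out (adjusted p = 0.0652 to 0.143) and with no filter, without mitochondrial genes or with quantile normalisation (0.33, adjusted p = 0.465, in the last). The rUUO call was lost without sham sample 1 or 4 or rUUO sample 2 or 4 (adjusted p = 0.0639 to 0.126) and with no filter or quantile normalisation (adjusted p = 0.0972 and 0.0888).

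The remaining PT values moved less. Cdh16 had 134.31, 158.86, 186.29 and 145.56 FPKM in UUO, a difference from sham of 0.35 ± 0.20 (adjusted p = 0.198). Zeb2 differed by 0.34 (adjusted p = 0.417) and Cdh2 by -0.42 (adjusted p = 0.325), although quantile normalisation, which removes the shift of the whole distribution, gave -1.05 for Cdh2 (adjusted p = 0.0292). Cdh11, Snai1, Snai2 and Twist1 were under the filter, with no PT sample above 1.04, 0.17, 0.34 and 0.60 FPKM respectively. Of the 6 genes that passed, 3 were higher and 0 lower in UUO than in sham, where 27.9% of all genes were called higher and 4.91% lower. In rUUO against UUO, 0 were higher and 1 lower (0.674% and 3.15% of all genes), and in rUUO against sham 3 were higher and 0 lower (6.52% and 0.946%). The counts over all genes depend on scaling, since 3186 genes were called higher and 561 lower in UUO than in sham, but 2085 and 853 without mitochondrial genes and 1218 and 1217 with quantile normalisation. For rUUO against UUO the split of 77 higher and 360 lower turned into 134 and 113 and into 211 and 148, and for rUUO against sham quantile normalisation moved 744 and 108 to 508 and 232.

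Other cell markers moved in the same PT samples. The 9 distal tubule markers summed to 428 to 531 FPKM in UUO and 164 to 247 FPKM in rUUO, against 42.4 to 56.3 FPKM in sham, and 4 of the 9 were called higher in UUO. Among them Atp6v1g3, a proton pump subunit of intercalated cells, rose by 5.45 (adjusted p = 3.5e-09) and Umod, made by the thick limb, by 3.01 (adjusted p = 3e-06). Over the same samples the 8 proximal tubule markers summed to 2710 to 3600 FPKM in sham but to 701 to 1040 after UUO and 1690 to 2030 after rUUO, and all 8 were lower in UUO. Of the 10 stromal markers, which summed to 40.3 to 66.5 FPKM in UUO and 20.6 to 26.5 FPKM in sham, 7 passed the filter and 4 were called higher. Over all genes 27.9% were called higher and 4.91% lower in UUO than in sham. The leukocyte markers summed to 37.3 to 99.2 FPKM in UUO and 41.7 to 76.6 FPKM in sham. The part of these markers in the Cdh1, Cdh6 and Vim differences was not tested. In sorted bulk samples, fewer cells of a type and less RNA per cell cannot be told apart.

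**Figure D2:**
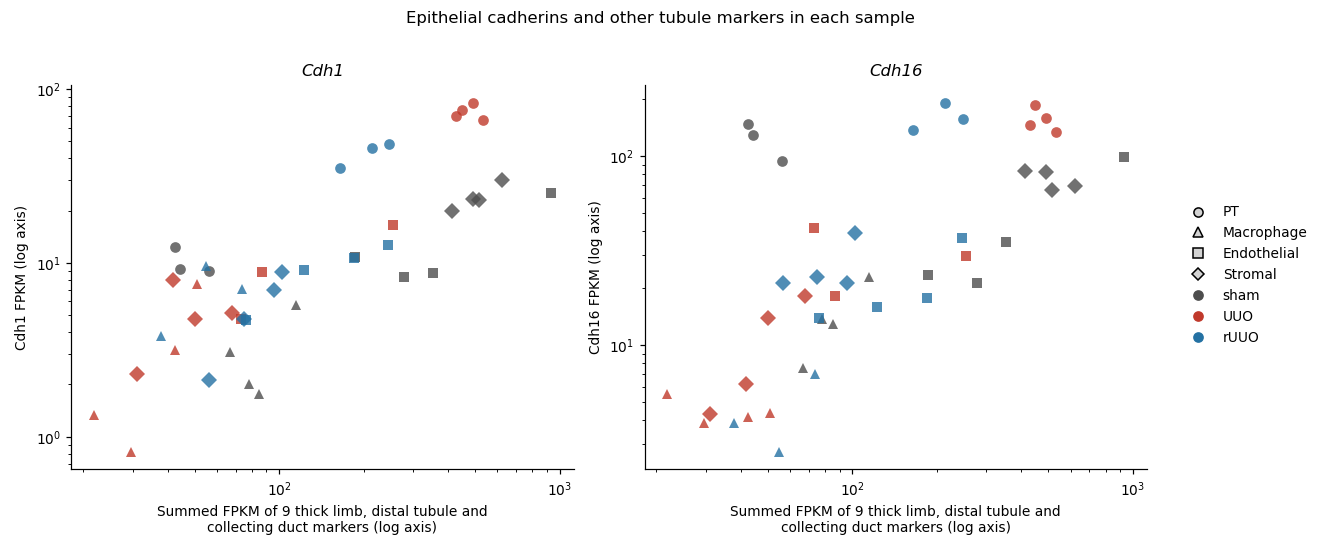
Summed FPKM of 9 markers of thick limb, distal tubule and collecting duct (horizontal, log axis) against FPKM of Cdh1 and of Cdh16 (vertical, log axis) for each of the 44 samples, with symbols for population and colours for surgery. PT samples shift from 42.4 to 56.3 in sham to 428 to 531 in UUO along the horizontal axis while Cdh1 goes up, and stromal samples move from 414 to 622 in sham down to 31.2 to 67.8 in UUO while both cadherins go down.

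Partners of the cadherins were higher in the PT sort as well, where the median of all genes was 0.51 higher in UUO than in sham. The 4 catenins, which couple cadherins to the cytoskeleton, were each higher in UUO than in sham, Ctnna1 by 1.16 ± 0.19 (adjusted p = 0.000343), Ctnnb1 by 0.73 ± 0.17, Ctnnd1 by 0.93 ± 0.20 and Jup by 1.27 ± 0.25. Of 11 epithelial identity genes that passed the filter, 7 were higher and 0 lower, with a median of 1.82 against 0.51 for all genes. Of all genes 27.9% were called higher in this comparison, 3186 genes, or 1218 with quantile normalisation. Epcam, an epithelial adhesion molecule, went from 5.13 ± 4.41 to 78.1 ± 6.29 FPKM (3.92 ± 0.33, adjusted p = 8.9e-07), and the keratin Krt18 from 0.78 ± 0.90 to 40.2 ± 12.2 FPKM (4.60 ± 0.33, adjusted p = 2.09e-07). Its partner Krt8 rose by 2.49 ± 0.26 (adjusted p = 6.91e-06) and the desmosomal Dsp by 2.71 ± 0.27 (adjusted p = 4.38e-06). Fn1, which encodes fibronectin, was higher by 1.03 ± 0.29, S100a4 by 1.46 ± 0.54 and the epithelial integrin gene Itgb6 by 1.17 ± 0.22. P-cadherin (Cdh3) was higher as well (1.56 ± 0.36, adjusted p = 0.0054), whereas 0 of 3 further transition factors were called. After reversal Krt18, Epcam, Dsp, Krt8 and Esrp1 were still called above sham, by 3.84, 2.79, 1.68, 1.67 and 1.58, and against UUO Dsp, Itgb6 and Ctnnd1 were lower by 1.03, 0.95 and 0.80. The distal tubule markers given above also summed higher in these UUO and rUUO samples than in sham. Their part in the catenin and epithelial differences was not tested, and values of these genes under the other scalings are not given.

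**Figure D3:**
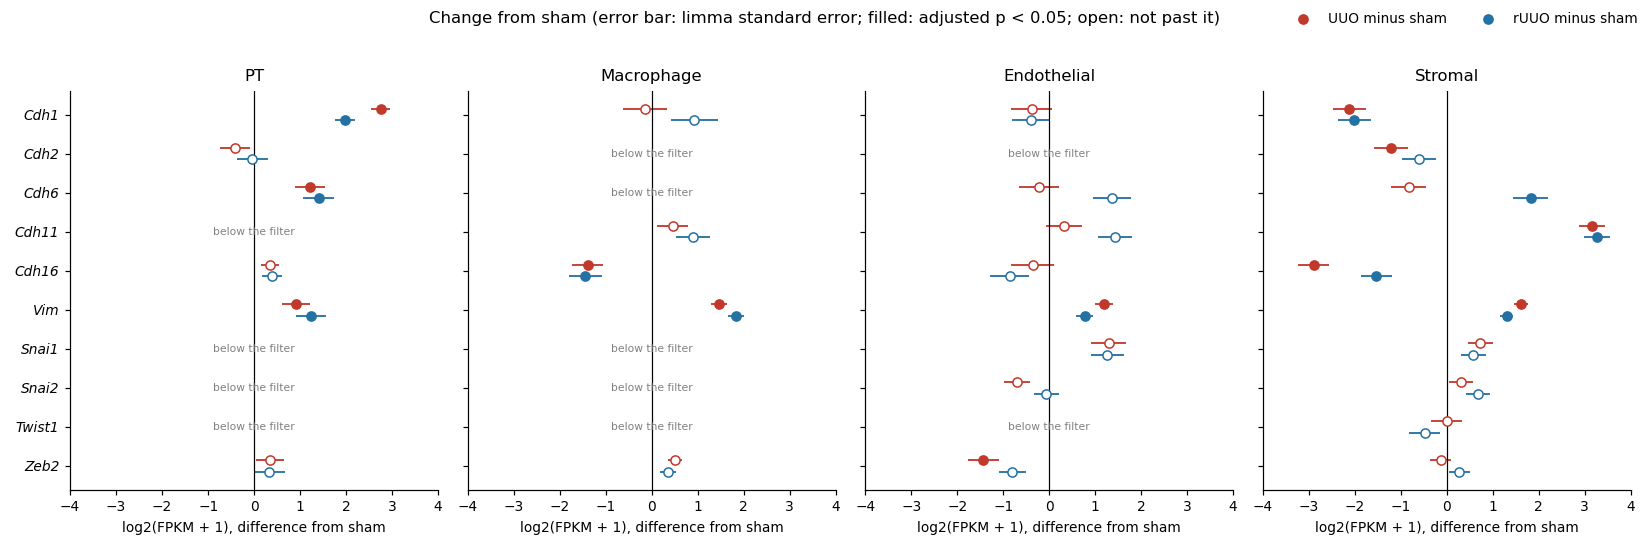
Log2 difference from sham, on log2(FPKM + 1), of each of the 10 genes in UUO and rUUO, 1 panel per population, with error bars of the limma SE and filled symbols for differences called at an adjusted p under 0.05. Genes marked as below the filter were not tested. Cdh1 is called up in PT cells (2.75 in UUO) and down in stromal cells (-2.12), and Cdh11 is called in stromal cells at 3.15 in UUO and 3.27 in rUUO.

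In stromal cells Cdh11 took the opposite course to the epithelial cadherins. Cdh11 had 122.37, 197.51, 202.11 and 142.31 FPKM in UUO (166 ± 39.8 SD, n = 4) and 180.97, 149.96, 208.91 and 174.07 FPKM in rUUO, against 9.43, 19.46, 30.52 and 16.12 FPKM in sham (18.9 ± 8.81 SD, n = 4). Both operated groups lay wholly above sham, by 3.15 ± 0.28 (adjusted p = 8.28e-07) and 3.27 ± 0.28 (adjusted p = 1.23e-06), and the difference between them was not called (0.13, adjusted p = 0.841). Vim had 760.35, 700.39, 595.12 and 739.25 FPKM in UUO and 578, 567.04, 513.45 and 567.44 FPKM in rUUO, against 233.02, 272.18, 225.35 and 182.13 FPKM in sham. It too was above every sham sample in both groups, by 1.62 ± 0.15 (adjusted p = 1.05e-06) and 1.30 ± 0.15 (adjusted p = 1.62e-05). With quantile normalisation both were smaller but still called (0.995 and 0.80).

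Cdh6 was set apart by reversal. It had 17.56, 16.28, 15.5 and 19.47 FPKM in stromal rUUO cells, against 0.92, 1.48, 3.38 and 2.32 FPKM in UUO and 7.57, 6.16, 1.53 and 3.31 FPKM in sham. The rUUO samples lay above all others, by 2.65 ± 0.38 over UUO (adjusted p = 0.00178) and 1.83 ± 0.38 over sham (adjusted p = 0.00283), and both calls were kept under all 7 other ways of processing and with any single sample left out. The lower values in UUO than in sham were not called (-0.82, adjusted p = 0.125), but were called without sham sample 3 (-1.15, adjusted p = 0.0246).

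Cdh1 and Cdh16 were low in stromal cells after both operations. Cdh1 had 2.29, 5.14, 4.74 and 7.94 FPKM in UUO and 4.76, 2.13, 6.95 and 8.81 FPKM in rUUO, all below the sham values of 19.79 to 29.96 FPKM. The differences were -2.12 ± 0.36 (adjusted p = 0.000451) and -2.01 ± 0.36 (adjusted p = 0.00107). Cdh16 had 4.3, 18.29, 13.85 and 6.22 FPKM in UUO and 22.89, 21.38, 21.43 and 38.98 FPKM in rUUO, against 66.22 to 82.83 FPKM in sham. It was lower by -2.89 ± 0.34 in UUO (adjusted p = 1.46e-05) and by -1.53 ± 0.34 in rUUO (adjusted p = 0.00545), and its level in rUUO lay above that in UUO without overlap. That last difference (1.36 ± 0.34, adjusted p = 0.0387) was no longer called without sham sample 1, 2 or 4, UUO sample 1 or 4 or any one of the rUUO samples (adjusted p = 0.0524 to 0.105), nor with no filter, no intensity trend or any of the 3 other scalings (adjusted p = 0.0536 to 0.126). Cdh2 had 3.5, 0.87, 2.55 and 4.74 FPKM in UUO, all below the sham range of 5.09 to 11.13 FPKM, a difference of -1.22 ± 0.37 (adjusted p = 0.0233) that was lost without sham sample 2 or 4 or UUO sample 2 (adjusted p = 0.0509 to 0.0814) and with no filter (adjusted p = 0.0546).

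Nephron markers moved with the epithelial cadherins in the stromal sort. The 9 distal tubule markers, all 9 called lower in UUO and in rUUO than in sham (medians -3.24 and -2.99), summed to 414 to 622 FPKM in sham, 31.2 to 67.8 FPKM in UUO and 56.4 to 102 FPKM in rUUO. The proximal tubule markers summed to 41.5 to 74.8, 8.4 to 18 and 8.69 to 28.8 FPKM, and the 4 podocyte markers were all called lower in UUO. No marker of these lists was at 0 in every stromal sample. Over all genes 13.4% were called higher and 13.0% lower in stromal UUO than in sham, and 11.6% and 5.57% in rUUO. Stromal markers summed to 1470 to 2440 FPKM in sham but to 6780 to 10100 after UUO and 5170 to 6370 after rUUO, most of it from the collagens Col1a1 (4.01 higher in UUO) and Col1a2 (3.90 higher) and from Dcn. Of these 10 markers 6 were higher and 3 lower in UUO, and 5 higher and 4 lower in rUUO. The genes called lower were Pdgfrb, the gene of the sorted protein (-0.88 in UUO and -0.70 in rUUO), Cspg4 (-1.96 and -1.18) and Ren1 (-3.21 and -4.65), and Rgs5 in rUUO (-1.48). Not all mural genes fell, since Acta2 and Tagln, also of this list, were not called lower in either group. By the counts above, Acta2, Tagln or both were among the genes called higher in each group. The part of these markers in the cadherin differences was not tested.

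The stromal transcription factors changed little beside the cadherins. Snai1 had 16.72, 10.54, 10.77 and 12.68 FPKM in UUO against 10.58, 6.92, 7.1 and 4.78 FPKM in sham, overlapping by a narrow margin. The difference was 0.73 (adjusted p = 0.0578), called with values rescaled to a common sum (0.86, adjusted p = 0.0409), with quantile normalisation (0.78, adjusted p = 0.0462) and without sham sample 1 (0.91, adjusted p = 0.0337). Snai2 in rUUO, at 35.12, 25.39, 21.65 and 20.46 FPKM, lay above every sham value of 13.93 to 18.03 FPKM, by 0.68 (adjusted p = 0.0879), and was called without UUO sample 3 (adjusted p = 0.041). Twist1 differed from sham by 0.00 in UUO (adjusted p = 1), and Zeb2 by -0.13 (adjusted p = 0.72).

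All 10 genes passed the filter in stromal cells. In UUO against sham 2 were higher and 3 lower, where 13.4% of all genes were called higher and 13.0% lower. In rUUO against UUO 2 were higher and 0 lower (2.95% and 1.22% of all genes), and in rUUO against sham 3 were higher and 2 lower (11.6% and 5.57%). Without mitochondrial genes the split over all genes moved from 1881 higher and 1823 lower to 1583 and 2682 for UUO against sham, and from 1626 and 781 to 1037 and 1095 for rUUO against sham. With quantile normalisation the latter was 1207 and 1135, and that of rUUO against UUO moved from 414 and 171 to 192 and 168.

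Among the further stromal genes, the fibroblast factor Prrx1 rose by 2.88 ± 0.47 in UUO (adjusted p = 0.000283) and was 2.23 ± 0.47 above sham in rUUO (adjusted p = 0.0034), 1 of 5 further transition factors that passed the filter to be higher. Zeb1, the relative of Zeb2, was lower in rUUO, at 24.7 ± 1.59 FPKM against 64.7 ± 13.1 FPKM in sham (-1.33 ± 0.29, adjusted p = 0.00436). Fibronectin (Fn1) went from 57.0 ± 36.2 to 1069 ± 137 FPKM in UUO and 509 ± 54.2 FPKM in rUUO, and Fap, a protease of activated fibroblasts, rose by 3.68 ± 0.47 in UUO (adjusted p = 2.88e-05). The pericyte filament gene Des fell from 112 ± 20.1 to 24.3 ± 10.04 FPKM in UUO (-2.22 ± 0.24, adjusted p = 6.44e-06). Nes, another filament gene, was lower in UUO by -1.18 ± 0.32 (adjusted p = 0.0114), and Itgb6, an integrin of epithelial cells, by -2.02 ± 0.45 (adjusted p = 0.00335). Of 8 epithelial identity genes that passed, 4 were lower and 0 higher in UUO, against 13.0% and 13.4% of all genes, Epcam by -2.43, Crb3 by -1.93, Dsp by -1.89 and Tjp1 by -0.65. The part of the nephron markers in these epithelial differences was not tested. The 4 catenins were not called in any stromal comparison between surgery groups.

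**Figure D4:**
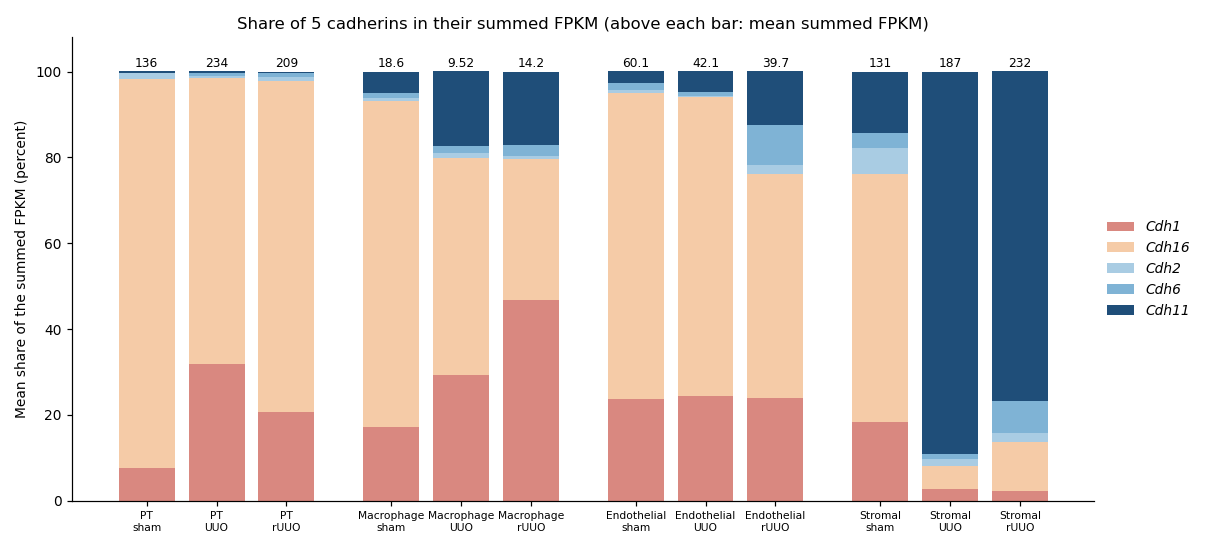
Share of each of 5 cadherins in their summed FPKM (vertical, percent, from 0 to 100) for the 12 groups of population and surgery, as stacked bars of group means over samples. Cdh11 takes 14.3% of the stromal sum in sham, 89.1% in UUO and 76.9% in rUUO, and Cdh1 7.56%, 31.8% and 20.6% of the PT sum.

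Since FPKM is given per length of transcript, the 5 cadherins can be set against each other within a sample. In stromal sham cells Cdh16 made up 57.8 ± 5.94% of their summed FPKM (SD, n = 4), Cdh1 18.4 ± 2.98% and Cdh11 14.3 ± 6.11%. After UUO Cdh11 made up 89.1 ± 1.98% and after reversal 76.9 ± 4.93%, while Cdh6 took 7.47 ± 1.00% in rUUO, more than Cdh1 (2.36 ± 1.03%). The sum itself was 131 ± 11.6 FPKM in sham, 187 ± 45.9 in UUO and 232 ± 27.6 in rUUO. In PT cells Cdh16 kept the first place, with 90.8 ± 1.26% in sham, 66.8 ± 2.23% in UUO and 77.2 ± 2.72% in rUUO, and Cdh1 took most of the rest, with 7.56 ± 1.02%, 31.8 ± 2.36% and 20.6 ± 1.99%. These shares are descriptions of the levels tested above and carry no test of their own.

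In macrophages Vim rose and Cdh16 fell. Vim had 131.22, 151.07, 114.85 and 152.75 FPKM in UUO and 198, 195.35 and 141.11 FPKM in rUUO, against 50.43, 44.75, 52.44 and 47.82 FPKM in sham. No operated sample overlapped sham, and the differences of 1.47 ± 0.17 (adjusted p = 0.000164) and 1.83 ± 0.18 (adjusted p = 8.22e-05) were called in all 7 other ways of processing. Cdh16 had 3.88, 5.5, 4.37 and 4.19 FPKM in UUO and 7.04, 3.87 and 2.73 FPKM in rUUO, against 7.59, 22.89, 12.91 and 13.73 FPKM in sham. Its levels did not overlap sham in either group, and the differences were -1.39 ± 0.34 (adjusted p = 0.0298) and -1.44 ± 0.36 (adjusted p = 0.0439). The first was lost without sham sample 2, 3 or 4 or UUO sample 1, 3 or 4 (adjusted p = 0.0586 to 0.104), and the second without any of these or without rUUO sample 4 or 6 (adjusted p = 0.0501 to 0.19). With no filter neither was called (adjusted p = 0.0767 and 0.102), and the second was also lost with values rescaled to a common sum (adjusted p = 0.0516) and with no intensity trend (adjusted p = 0.0553). Proximal tubule markers in the same macrophage samples summed to 101 to 148 FPKM in sham but to 26.8 to 34.9 after UUO and 20.3 to 38.6 after rUUO, and distal markers to 66.5 to 115, 21.9 to 50.8 and 38.0 to 73.7 FPKM. Stromal markers, by contrast, summed to 14.2 to 58.4 FPKM in sham macrophages but to 46.2 to 83.6 after UUO and 45.9 to 88.7 after rUUO. The part of these markers in the Cdh16 and Vim differences was not tested.

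Zeb2, a factor of the macrophage lineage, had 173.26, 238.75, 165.65 and 171.22 FPKM in macrophages after UUO, above every sham value of 111.62 to 145.78 FPKM, but the difference of 0.51 was not called (adjusted p = 0.0899). Cdh1 differed by -0.15 in UUO (adjusted p = 0.902) and Cdh11 by 0.46 (adjusted p = 0.494). Cdh2, Cdh6, Snai1, Snai2 and Twist1 were under the filter, the highest value among them being 2.67 FPKM, for Snai2. Of the 5 genes that passed, 1 was higher and 1 lower in UUO (2.86% and 2.13% of all genes), and likewise in rUUO against sham (1.89% and 1.55%). Between rUUO and UUO limma called 0 of the 5 genes, with 0 under an unadjusted p of 0.05, and 0 of 13332 genes in all, with 945 under an unadjusted p of 0.05. Of the further genes Jup (-1.08 ± 0.27) and the filament gene Nes (-1.14 ± 0.25) were lower in UUO.

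In endothelial cells Vim rose and Zeb2 fell after obstruction. Vim had 538.64, 441.27 and 329.42 FPKM in UUO and 346.84, 252.62, 400.39 and 303.8 FPKM in rUUO, against 200.51, 189.72, 162.14 and 200.31 FPKM in sham. Both operated groups lay above sham, by 1.19 ± 0.20 (adjusted p = 0.00402) and 0.77 ± 0.18 (adjusted p = 0.0412). The rUUO call was lost when any of the 4 sham samples, UUO sample 2 or rUUO sample 1, 4 or 6 was left out (adjusted p = 0.052 to 0.154), and with no filter, no intensity trend, no mitochondrial genes or quantile normalisation (adjusted p = 0.0734 to 0.176). Zeb2 had 9.34, 11.06 and 8.12 FPKM in UUO against 30.77, 40.8, 25.4 and 16.71 FPKM in sham, without overlap, a difference of -1.43 ± 0.33 (adjusted p = 0.0351). This call was lost without sham sample 1, 2 or 3 or any one UUO sample (adjusted p = 0.0589 to 0.101), and with no filter, no intensity trend or values rescaled to a common sum (adjusted p = 0.055 to 0.13). Leukocyte markers in these endothelial samples summed to 61.0 to 85.4 FPKM in sham and 56.3 to 111 FPKM in UUO, and stromal markers to 119 to 138 and 117 to 130 FPKM. Distal tubule markers summed to 186 to 929 and 72.8 to 254 FPKM (2 of 9 called lower), proximal tubule markers to 58.7 to 183 and 19.5 to 49.5 FPKM (0 of 8 called) and podocyte markers to 262 to 577 and 249 to 269 FPKM (1 of 4 called lower). The part of these markers in the Vim and Zeb2 differences was not tested. Over all genes 1.28% were called higher and 0.702% lower in endothelial UUO than in sham. In rUUO, at 9.3, 13.6, 17.96 and 22.7 FPKM, Zeb2 overlapped both other groups (-0.80 against sham, adjusted p = 0.235).

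Several endothelial levels did not overlap between groups but were not called. How many of all genes separate in this way was not counted, so the values that follow are descriptions only. Snai1 had 3.43, 1.84 and 3.51 FPKM in UUO and 1.95, 4.28, 2.91 and 2.22 FPKM in rUUO, above every sham value of 0.12 to 0.95 FPKM, with differences of 1.29 (adjusted p = 0.122) and 1.26 (adjusted p = 0.108). Cdh11 in rUUO, at 3.83, 3.92, 5.02 and 6.2 FPKM, lay above the sham values of 0.64 to 1.76 FPKM by 1.44 (adjusted p = 0.0639), and was called with no intensity trend (adjusted p = 0.0488) and without UUO sample 2 (adjusted p = 0.0406). Cdh6 in rUUO had 1.12, 3.98, 3.71 and 5.8 FPKM against 0.3, 0.44 and 0.53 FPKM in UUO, higher by 1.59 (adjusted p = 0.216). In rUUO the stromal markers summed to 184 to 231 FPKM in endothelial cells. Their part in the Cdh11 and Cdh6 values was not tested. Snai2 in rUUO, at 12.37, 10.85, 13.55 and 11.2 FPKM, lay above its UUO values of 8.62, 5.39 and 8.31 FPKM by 0.64 ± 0.29 (adjusted p = 0.465) and overlapped sham, and UUO against sham overlapped as well (-0.70, adjusted p = 0.296). Cdh1 and Cdh16 overlapped between groups, and endothelial sham sample 3 was highest for both Cdh1 (25.2 FPKM) and Cdh16.

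Cdh2 and Twist1 were under the filter in endothelial cells. Of the 8 genes that passed, 1 was higher and 1 lower in UUO (1.28% and 0.702% of all genes), and 1 was higher and 0 lower in rUUO against sham (1.40% and 0.366%). Between rUUO and UUO limma called 0 of the 8, with 3 under an unadjusted p of 0.05, where 0.0448% of all genes were called higher and 0.0149% lower. Without endothelial sham sample 3, Vim was still called in UUO (1.12, adjusted p = 0.016), but Zeb2 in UUO (-1.46, adjusted p = 0.0738) and Vim in rUUO (0.70, adjusted p = 0.131) were not. The splits over all genes were 171 higher and 94 lower in UUO, or 105 and 112 without mitochondrial genes, and 188 and 49 in rUUO against sham, or 132 and 84 with quantile normalisation. VE-cadherin (Cdh5), the cadherin of endothelial junctions, stood at 306 ± 58.8 FPKM in sham and was not called in any surgery comparison, whereas T-cadherin (Cdh13) rose in UUO from 5.53 ± 0.73 to 27.6 ± 7.03 FPKM (2.11 ± 0.34, adjusted p = 0.00334). Fn1 was higher in rUUO than in sham (1.13 ± 0.26, adjusted p = 0.0339).

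Whether a change differed between populations was tested over all 44 samples with a moderated F-test. For UUO against sham 7 of the 10 genes were called, against 33.5% of all genes. The smallest adjusted p-values were those of Cdh11 (1.4e-07), Cdh1 (3.88e-07) and Cdh16 (5.28e-05). Cdh1 stood 2.75 above sham in PT cells and 2.12 below it in stromal cells, and Cdh11 3.15 above it in stromal cells. Zeb2 (adjusted p = 0.000313) was 1.43 lower in endothelial cells and 0.51 higher in macrophages, and Cdh6 (adjusted p = 0.00407) was higher in PT cells. Snai1 (adjusted p = 0.011) and Snai2 (adjusted p = 0.0312) differed with no call in endothelial or stromal cells. In PT cells and macrophages both were under the filter and not tested. Levels that low leave little room for change on log2(FPKM + 1), so these 2 results partly reflect where the genes are expressed. The Snai1 call was lost with a pseudocount of 0.1 (adjusted p = 0.0949). The Snai2 call was lost without macrophage sham sample 1, macrophage UUO sample 1 or 3, endothelial sham sample 1 or 2 or endothelial UUO sample 2 (adjusted p = 0.0539 to 0.1). Vim, whose called differences were upward in all 4 populations, was not shown to differ between them (adjusted p = 0.142), nor were Cdh2 (adjusted p = 0.0562) and Twist1 (adjusted p = 0.86). For rUUO against UUO only Cdh6 was called among the 10 (adjusted p = 0.000589), against 5.57% of all genes.

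Genes with the most similar pattern to each of the 10 were found by Pearson's r on log2(FPKM + 1) over the 44 samples among 14332 genes. The samples fall into 4 populations, so r mostly reflects differences between populations. Cdh1 was closest to Epcam (0.935), Tfcp2l1 (0.925) and Paqr5 (0.922), and Cdh16 to Atp1b1 (0.943), Ndrg1 (0.929) and Kcnj16 (0.926). The closest genes to Cdh11 were Ahnak2 (0.980), Col6a1 (0.979) and Col1a2 (0.979), and those to Cdh6 were Igfbp2 (0.921), Stc2 (0.905) and Cldn1 (0.873). Cdh2 was nearest to Hoxc10 (0.904), Gstm6 (0.903) and Ptpn13 (0.894). For Vim they were Cnn2 (0.959), Sept2 (0.946) and Tpm4 (0.943), for Snai1 Prelp (0.967), Slit3 (0.962) and Cyp1b1 (0.959), and for Snai2 Ltbp4 (0.966), Olfml2b (0.959) and Msrb3 (0.959). Twist1 was nearest to Cd248 (0.972), Lrrc17 (0.968) and Steap4 (0.968), and Zeb2 to Axl (0.944), Ckb (0.942) and Rnf150 (0.942). Among the 10 genes themselves the highest r was that of Cdh11 with Snai1 (0.91), followed by Cdh11 with Twist1 (0.88), whereas Cdh1 with Cdh16 gave 0.81 and Cdh1 with Zeb2 -0.62.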

How the data were processed

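RNA of cells sorted from mouse kidney was amplified (Ovation RNA-Seq System V2) before sequencing. As deposited by the authors, expression is in FPKM with 2 decimals, for 53465 genes of the mouse build mm10 (GRCm38). The submitters' processing notes name FastQC, Bowtie2, RSEM and DESeq2 without versions. The table holds no counts, so depth is unknown and no counting error is given. FPKM sums were 586929 to 884982 per sample.

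Of 46 value columns 44 were used. The other 2 share the name of 1 endothelial UUO sample and could not be assigned, and the PT sham sample numbered 3 has no column. Groups came from the sample labels. The labels do not say that samples of a group came from separate mice, so p-values measure the spread between these samples, which may be technical.

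Within each population limma (lmFit, eBayes with an intensity trend) was fitted to log2(FPKM + 1) for those genes whose mean over its samples reached 1 FPKM, with Benjamini-Hochberg adjustment over all genes and a threshold of 0.05. The sham samples of the 4 populations and all 44 samples were fitted likewise. Each fit pools the spread of a gene over all its groups. Alternatives were a pseudocount of 0.1, no filter, FPKM rescaled to the same sum per sample (TPM), rescaling without the 37 mitochondrial genes, quantile normalisation, no intensity trend, a replicate block and each sample left out. The genes named were the 10 members, fixed lists of other cadherins, catenins, transition factors, epithelial and mesenchymal genes where called, cell type markers, and the 3 genes with the highest Pearson's r for each member. One gene of these lists is not reported here. The members and lists were chosen with earlier results of these data known. UUO against sham and rUUO against sham share the sham samples, and all 3 comparisons share 1 fit. The fit was tested on simulated data, where it recovered 84.0 to 88.0% of changes of 2 in log2 units and 25.0 to 36.0% of changes of 1. These changes were placed in 100 genes per size and population, all with means well above the filter. Fewer genes changed than were called in some real comparisons, which affects the adjustment. Recovery of changes in genes near 1 FPKM was not tested. Promoter windows are from RefSeq, GRCm38.p6. R 4.3.3 with limma 3.58.1 and Python 3.11.15 with numpy 2.4.6, pandas 2.3.3 and matplotlib 3.10.9 were used.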

Additional observations from a re-analysis of the deposited data

Results flagged for a closer look

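In 59 sets of 4 samples, each of 1 gene in 1 group, 3 had a sample whose gap to its nearest neighbour exceeded Dixon's 95% critical value for 4 samples. Chance alone does this in about 1 of 20 sets, so 3 of 59 is about what chance gives. Cdh16 had 38.98 FPKM in stromal rUUO sample 6 against 21.38 to 22.89 FPKM in the other 3 (gap over range 0.887). Vim had 513.45 FPKM in stromal rUUO sample 4 against 567.04 to 578 FPKM in the others (0.838). Zeb2 had 238.75 FPKM in macrophage UUO sample 2 against 165.65 to 173.26 FPKM in the others (0.877).

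The change from sham to UUO differed between the 4 populations in the moderated F-test of limma for Cdh1 (adjusted p = 3.88e-07), Cdh6 (adjusted p = 0.00407), Cdh11 (adjusted p = 1.4e-07), Cdh16 (adjusted p = 5.28e-05), Snai1 (adjusted p = 0.011), Snai2 (adjusted p = 0.0312) and Zeb2 (adjusted p = 0.000313). Snai1 and Snai2 were under the filter within PT cells and macrophages. The change from UUO to rUUO differed for Cdh6 (adjusted p = 0.000589), which was 2.65 higher in stromal cells. In PT cells limma did not call it (0.19, adjusted p = 0.773). Nor was it called in endothelial cells, though rUUO there lay above UUO without overlap (1.59, adjusted p = 0.216).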

How the results depend on the processing

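No called direction reversed under any alternative. Of 140 counts of members called under the 7 alternatives other than a left-out sample, 111 stayed within 1.5 times the reported count and 29 were lower. With no filter on low values the counts fell from 1 to 0 for PT rUUO against UUO, from 3 to 1 for PT rUUO against sham, from 2 to 1 for both macrophage comparisons with sham, from 2 to 1 for endothelial UUO against sham, from 1 to 0 for endothelial rUUO against sham and from 2 to 1 for stromal rUUO against UUO. The PT rUUO count against UUO was also 0 with a pseudocount of 0.1, without mitochondrial genes, with quantile normalisation and with no intensity trend, and that against sham was 1 with quantile normalisation. Rescaling to a common sum (TPM) and no intensity trend each gave 1 for macrophage rUUO against sham, for endothelial UUO against sham and for stromal rUUO against UUO. Without mitochondrial genes and with quantile normalisation the count was 0 for endothelial rUUO against sham and 1 for stromal rUUO against UUO. The causes were not tested, beyond that leaving out the filter adds low genes to the adjustment.

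Whether equal sample numbers pair samples is not stated in the labels. Samples with the same number deviated together little (median r of 0.007 to 0.017 between populations, and of -0.005 to 0.032 between surgery groups within a population). These medians lay mostly above those of samples with different numbers (-0.007 to 0 and -0.005 to -0.003), so pairing is not settled. With the replicate block the counts were 0 for PT rUUO against UUO, 1 for PT rUUO against sham, 1 for each macrophage comparison with sham, 0 for endothelial UUO and for endothelial rUUO against sham and 1 for stromal rUUO against UUO, and 10 of 86 single values lost and 1 gained a call. The calls lost were those of Cdh1 (rUUO against UUO), Cdh6 (rUUO against sham) and Vim (both against sham) in PT cells, Cdh16 in macrophages and Vim in endothelial cells (both against sham), Zeb2 in endothelial UUO and Cdh16 in stromal rUUO against UUO, and Snai2 in stromal rUUO against sham was gained.

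With each sample left out the count ranged from 2 to 3 for PT UUO against sham, 0 to 1 for rUUO against UUO and 1 to 3 for rUUO against sham. It ranged from 1 to 2 for both macrophage comparisons with sham, from 1 to 2 and 0 to 1 for endothelial UUO and rUUO against sham, and from 4 to 6, 1 to 2 and 5 to 6 for the stromal comparisons in the same order as in PT cells. The count of changes differing between populations ranged from 6 to 8 for UUO against sham and 1 to 2 for rUUO against UUO, and that of the sham comparisons lay between 5 and 10. Of 1368 values of genes called in no setting, 80 changed sign. The simulated recovery of log2 changes of 1, at most 36.0%, limits what an uncalled value shows, and so does a level near 1 FPKM.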
